A study of Mus musculus with 6 samples.

Results

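The genes described here carry out S phase, the part of the cell cycle in which DNA is copied. They are 50 mouse genes chosen by symbol for their role in replication, with earlier results of these data known. Of the 50, 48 had an array probe set listed with that gene alone, out of 22180 genes that could be read in this way. A gene with several such probe sets was read from the one with the highest mean level. Rfc4 and Ccne2 were listed only on probe sets shared with a neighbouring gene and stand outside all counts. Expression was measured in RAW 264.7 cells, a transformed mouse macrophage-like line, on 6 arrays. In both groups the cells had taken up a GapmeR (50 nM, lipid transfection), a short antisense molecule with locked nucleic acid ends that lets RNase H cut the matching RNA. Collection followed at 48 h. The Control group (3 arrays) received a non-targeting GapmeR and the Mist-targeted group (3 arrays) GapmeR against the noncoding RNA Mist; the number of GapmeR sequences used is not given in the sources used here. The level of Mist itself was not analysed here, so the groups rest on the labels.

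Replication starts with licensing. The origin recognition complex, CDC6 and CDT1 load the ring-shaped MCM2 to MCM7 helicase onto origins before S phase, and geminin blocks reloading later. The kinase CDC7 with its activator DBF4, together with MCM10, CDC45 and the GINS complex, then turns the loaded rings into moving helicases. DNA polymerase alpha with primase begins each strand, polymerases delta and epsilon extend it on the sliding clamp PCNA, and ribonucleotide reductase, thymidylate synthase and thymidine kinase supply nucleotides. Many of these genes are transcribed by E2F factors, which are held back by proteins of the retinoblastoma family until cyclin-dependent kinases act. The comparison of Control with Mist-targeted arrays asks how the transcripts of these steps differ when Mist is targeted.

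Most replication genes were slightly higher on the Mist-targeted arrays, and none of the 48 passed the test over the whole array. Log2 differences, always Mist-targeted minus Control, were positive for 45 of 48 genes (44 after median centring, which turned Mcm8) and ran from -0.22 for Gins3 to 0.53 for Ccne1, with a median of 0.14. The median over all 22180 genes was 0.0069, and 52.2% of them were positive. In limma with Benjamini-Hochberg adjustment over all probe sets, 0 of 48 had an adjusted p under 0.05, where 0.212% of all genes were called higher and 0.203% lower. The lowest adjusted p among the 48 was 0.086, that of Cdc6. At an unadjusted p under 0.05 there were 14 of 48, all higher, where 5.24% of all genes were higher at that level and 5.79% lower. The level of the 3 Mist-targeted arrays lay above that of all 3 Control arrays in 21 of 48 genes (43.8%) and below in 0, where 9.99% of all genes lay above and 9.97% below. The 48 genes had mean levels between 5.37 and 10.3. Among the 8331 genes within that range, a background chosen after seeing the data, the median difference was 0.012. Of those genes 0.456% were called higher and 0.456% lower, an unadjusted p under 0.05 was reached by 9.83% on the higher and 11.2% on the lower side, and 16.7% lay above and 17% below without overlap. Fold changes were small. The largest, that of Ccne1, was 1.45-fold.

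**Figure D1:**
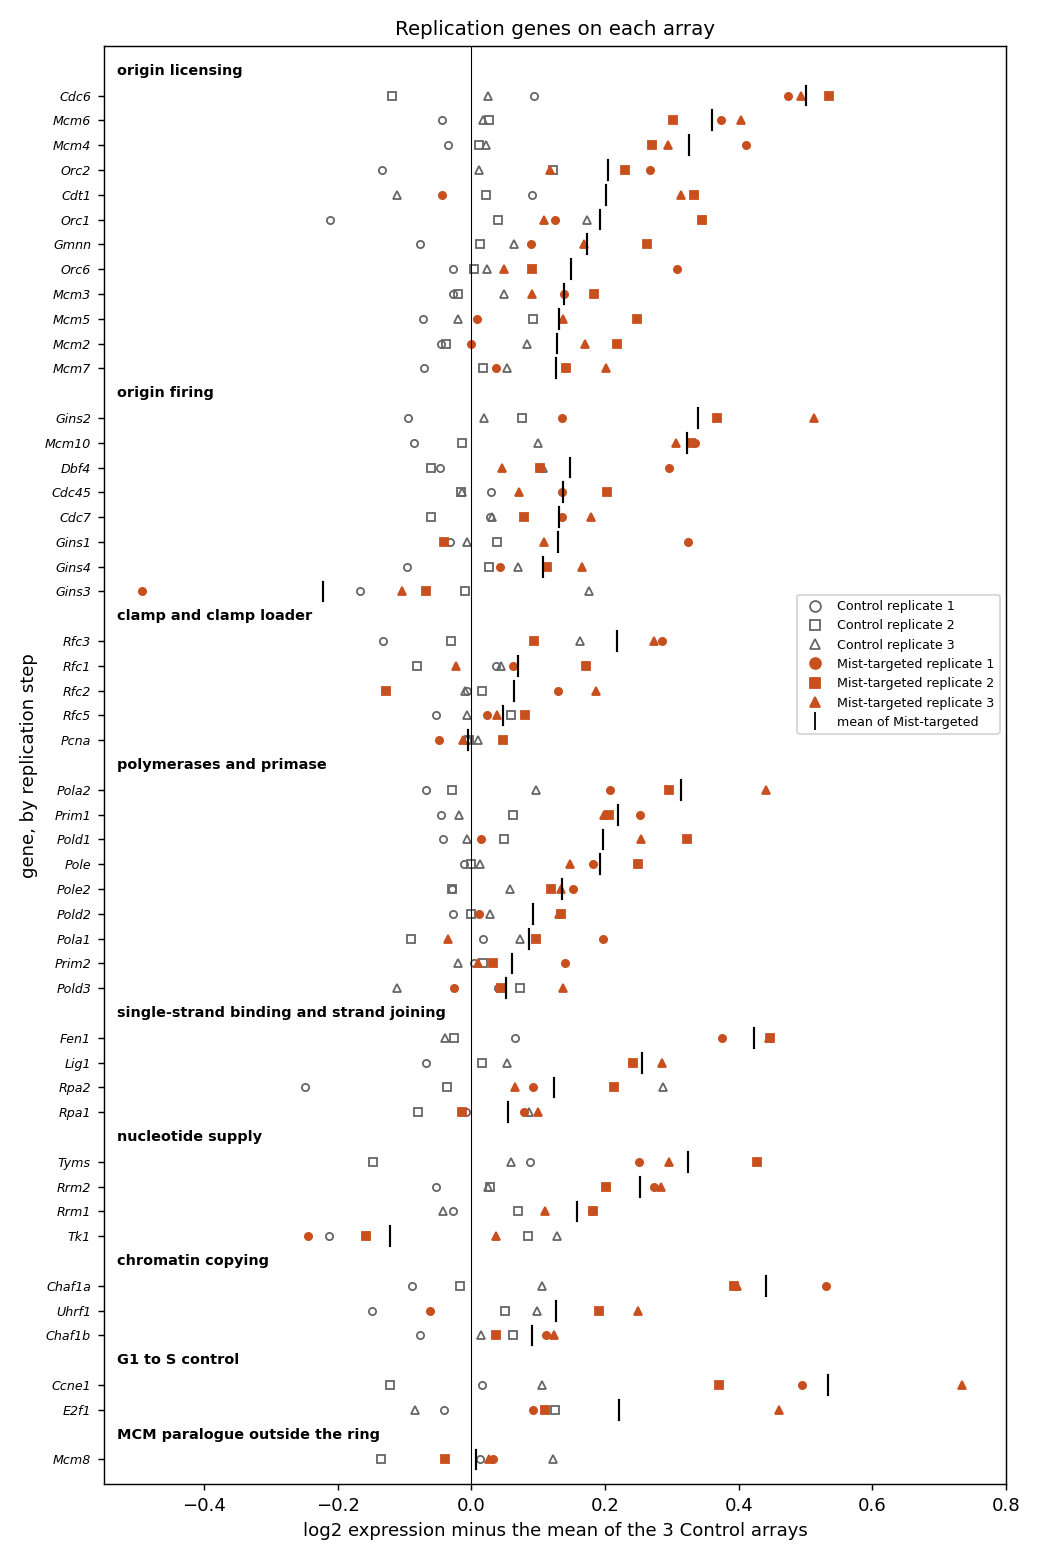
Log2 expression of the 48 replication genes on each of the 6 arrays, as the difference from the mean of the 3 Control arrays (horizontal axis), with genes grouped by replication step (vertical axis). Open grey symbols are Control arrays, filled symbols are Mist-targeted arrays and the vertical tick is the mean of the Mist-targeted arrays. The tick lies to the right of 0 in 45 of 48 genes and to the left for Gins3, Tk1 and Pcna.

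**Figure D2:**
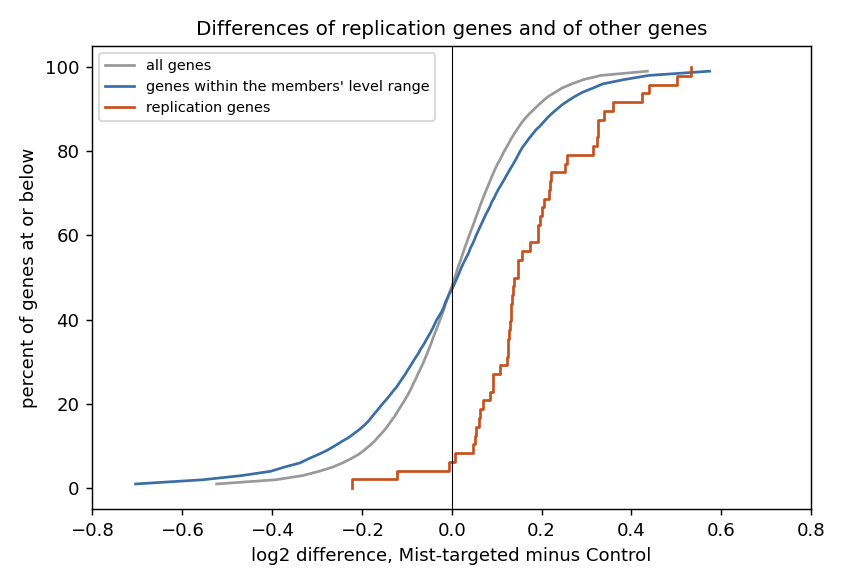
Cumulative share of genes (vertical axis, percent) at or below a log2 difference, Mist-targeted minus Control (horizontal axis), for all 22180 genes and the 8331 genes within the level range of the replication genes (both from percentile 1 to 99), and for the 48 replication genes (steps). The curve of the replication genes is shifted to the right, with its median at 0.14 against 0.0069 for all genes.

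The number called depended on which probe sets were tested. The annotation lists no gene for 16010 of the 41345 probe sets, and what these measure was not determined here, so the count of 0 rests on a background of partly unknown content. When only the 23521 probe sets listed with 1 gene entered the fit, 5 of 48 replication genes rose: Cdc6 (adjusted p = 0.00995), Fen1 (0.019), Ccne1 (0.022), Chaf1a (0.024) and Mcm6 (0.040), all from limma with Benjamini-Hochberg adjustment. In that fit 1.18% of all genes were called higher and 1.88% lower. A variance model with trend and robust estimation over all probe sets called 2, Cdc6 and Mcm6, both with an adjusted p of 0.049.

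Promoter sequences were set beside the expression values because E2F-driven transcription is a known control of many of these genes. RefSeq promoters, 250 bases before and 50 after the start site on build GRCm38.p6, were matched by symbol for 41 of the 50 genes. The E2F-type letters searched on both strands were TTTCCCGC, TTTCGCGC, TTTGCCGC and TTTGGCGC. At least 1 of them stood in the promoters of 16 of the 41 genes (39.0%), against 2.26% of all 32851 promoters and 2.61% of the 27025 genes with a promoter. Among the 16990 genes with a promoter that could be read on the arrays, the share was 3.26%. The 16 are Orc1, Cdc6, Cdt1, Mcm3, Mcm5, Mcm6, Mcm7, Gins3, Rfc3, Pola1, Pold1, Pold3, Pole2, Lig1, Uhrf1 and Mcm8. The letters CCAAT stood in 58.5% of the 41 genes' promoters and in 41.1% of all genes, and those of the cell cycle element CHR, TTTGAA or TTCGAA, in 22.0% and 21.7%. For 4 genes the 250 bases before the start site are given to show where the letters lie, in capitals: those of Mcm6 and Cdc6, which had some of the larger positive differences, of Mcm5, with a smaller one, and of Gins3, with the lowest. Mcm6 lies at chr1:128359706-128359955 on the minus strand, Mcm5 at chr8:75109259-75109508 on the plus strand, Cdc6 at chr11:98907901-98908150 on the plus strand and Gins3 at chr8:95633309-95633558 on the plus strand. Sequences read 5′ to 3′ on the strand of the gene.
Mcm6: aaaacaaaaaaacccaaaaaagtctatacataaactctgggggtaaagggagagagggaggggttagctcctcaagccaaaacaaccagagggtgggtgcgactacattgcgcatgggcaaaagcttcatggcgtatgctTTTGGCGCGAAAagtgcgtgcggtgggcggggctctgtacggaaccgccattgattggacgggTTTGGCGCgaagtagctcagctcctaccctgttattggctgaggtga
Mcm5: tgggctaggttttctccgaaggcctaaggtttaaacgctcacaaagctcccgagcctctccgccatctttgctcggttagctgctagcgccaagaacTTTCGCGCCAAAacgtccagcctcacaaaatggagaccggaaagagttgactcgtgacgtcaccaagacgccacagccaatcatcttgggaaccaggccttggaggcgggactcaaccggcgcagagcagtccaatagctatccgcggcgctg
Cdc6: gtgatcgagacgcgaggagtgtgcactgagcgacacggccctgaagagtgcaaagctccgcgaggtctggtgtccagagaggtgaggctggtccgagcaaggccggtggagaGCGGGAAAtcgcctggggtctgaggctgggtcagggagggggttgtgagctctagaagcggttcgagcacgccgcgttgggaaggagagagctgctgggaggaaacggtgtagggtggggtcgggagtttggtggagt
Gins3: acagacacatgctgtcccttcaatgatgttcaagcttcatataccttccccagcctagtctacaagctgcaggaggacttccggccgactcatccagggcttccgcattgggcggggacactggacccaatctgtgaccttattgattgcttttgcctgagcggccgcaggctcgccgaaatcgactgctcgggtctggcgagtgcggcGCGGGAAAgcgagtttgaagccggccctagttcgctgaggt

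In Mcm6 the matches began at -110, -106 and -47 from the start site, and the first 2 overlap on opposite strands. Mcm5 had an overlapping pair as well, Cdc6 had 1 match and Gins3 had 1. The measured genes with a match (16) had a median difference of 0.14 and those without (24) one of 0.15. Ccne1, Fen1 and Chaf1a, which had larger differences than Mcm6, held none of these letters in the window. Only these exact letters in this window were searched, so a missing match does not show that a gene lacks E2F sites.

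All 12 licensing genes lay on the positive side. They had differences from 0.13 to 0.50 with a median of 0.18, and 0 passed the test (3 at an unadjusted p under 0.05). At that p 5.24% of all genes were higher and 5.79% lower. Of the 12, 6 lay above without overlap, where 9.99% of all genes and 16.7% of those within the level range did. Cdc6, the loader that brings the MCM ring to origins, had log2 values of 7.21, 6.995 and 7.14 on the Control arrays and 7.59, 7.65 and 7.61 on the Mist-targeted arrays. Every Mist-targeted array was above every Control array, and the means were 7.11 ± 0.11 and 7.61 ± 0.032 (SD, n = 3 each). The difference was 0.50 ± 0.089 (SE), or 1.41-fold (limma, adjusted p = 0.086).

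Among the subunits of the MCM ring, Mcm4 and Mcm6 had the larger differences. Mcm6 was at 9.60, 9.67 and 9.66 on the Control arrays and at 10.01, 9.94 and 10.04 on the Mist-targeted arrays, with no overlap and a difference of 0.36 ± 0.080 (SE; limma, adjusted p = 0.16). Mcm4 was at 9.44, 9.48 and 9.49 against 9.88, 9.74 and 9.77, again with no overlap, and differed by 0.33 ± 0.082 (adjusted p = 0.20). The other 4 subunits, which form the same ring, had differences between 0.13 and 0.14: Mcm2 at 0.13, Mcm3 at 0.14, Mcm5 at 0.13 and Mcm7 at 0.13. The 95% interval of Mcm2 ran from -0.091 to 0.349 and that of Mcm3 from -0.047 to 0.323. For Mcm5 it ran from -0.095 to 0.358 and for Mcm7 from -0.077 to 0.330. The difference of Mcm4 (0.325) lay within the intervals of Mcm2, Mcm5 and Mcm7 and just above that of Mcm3. That of Mcm6 (0.360) lay just above all 4 intervals. No test between subunits was made. The mean log2 value of Mcm4 and Mcm6 minus that of Mcm2, Mcm3, Mcm5 and Mcm7, a ratio chosen after the values were seen and given without a test, was 0.70, 0.69 and 0.66 on the Control arrays and 1.03, 0.77 and 0.88 on the Mist-targeted arrays. The ratio was higher on each Mist-targeted array, and farthest from Control on replicate 1.

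The remaining licensing genes had differences of 0.15 to 0.20. Of the origin recognition subunits, Orc2 differed by 0.20 ± 0.098 (SE), Orc1 by 0.19 ± 0.12 and Orc6 by 0.15 ± 0.096, and only Orc6 had groups that did not overlap. The loading factor Cdt1 differed by 0.20 ± 0.12, with Mist-targeted replicate 1 at 8.75, below 2 of the 3 Control arrays (8.88, 8.81 and 8.68). Its inhibitor geminin, Gmnn, differed by 0.17 ± 0.089, without overlap. The loader and its inhibitor had differences on the same side of 0, with adjusted p values in limma of 0.69 and 0.61.

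Of the 8 genes that fire origins, 7 were on the positive side, with a median of 0.13 for the step. None passed the test, and 2 had an unadjusted p under 0.05. Over all genes, 5.24% were higher and 5.79% lower at that p. Mcm10, which helps the helicase to open and to hold polymerase alpha, was at 7.87, 7.94 and 8.05 on the Control arrays and at 8.29, 8.28 and 8.26 on the Mist-targeted arrays. The groups did not overlap, and the difference was 0.32 ± 0.085 (SE; limma, adjusted p = 0.22). Gins2 was at 7.45, 7.62 and 7.57 against 7.68, 7.92 and 8.06, with Mist-targeted replicate 1 close to the Control arrays and a difference of 0.34 ± 0.12 (adjusted p = 0.38).

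The 4 GINS subunits, which act in the cell as 1 complex, spread most widely. Gins3 had the lowest difference of all replication genes, -0.22 ± 0.14 (SE; limma, adjusted p = 0.71). Its values were 8.72, 8.88 and 9.06 on the Control arrays and 8.39, 8.82 and 8.78 on the Mist-targeted arrays, so that the groups overlapped and Mist-targeted replicate 1 stood lowest. Without that array the difference of Gins3 was -0.086. Gins1 and Gins4 had differences of 0.13 ± 0.11 and 0.11 ± 0.087, both with overlap. Single arrays moved them too: without Mist-targeted replicate 1 Gins1 was at 0.033, and without Mist-targeted replicate 2 at 0.22, while Gins4 was at 0.059 without Control replicate 1. The kinase genes Cdc7 and Dbf4 differed by 0.13 ± 0.081 and 0.15 ± 0.10, and the helicase cofactor Cdc45 by 0.14 ± 0.081. Cdc7 and Cdc45 did not overlap between groups, whereas Dbf4 did.

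Genes of the clamp and its loader differed least. Pcna, the sliding clamp, was at 9.93, 9.93 and 9.95 on the Control arrays and at 9.89, 9.99 and 9.93 on the Mist-targeted arrays. The Control arrays had an SD of 0.0083, the Mist-targeted arrays lay on both sides of them, and the difference was -0.0049 with a 95% interval from -0.19 to 0.18. Differences of the loader subunits were 0.070 for Rfc1, 0.063 for Rfc2, 0.22 for Rfc3 and 0.048 for Rfc5. These small values moved with single arrays, from 0.020 to 0.12 for Rfc1, 0.0014 to 0.16 for Rfc2 and 0.021 to 0.077 for Rfc5, with the lowest of Rfc1 without Mist-targeted replicate 2, of Rfc2 without Mist-targeted replicate 3 and of Rfc5 without Control replicate 1. Rfc3 was at 6.88, 6.98 and 7.17 against 7.30, 7.10 and 7.28, with overlap through Mist-targeted replicate 2 (0.22 ± 0.11, SE; limma, adjusted p = 0.59). None of these 5 genes had groups without overlap, where 9.99% of all genes lay above and 9.97% below. An unadjusted p under 0.05 was reached by 0 of the 5, where 5.24% of all genes were higher at that level and 5.79% lower. With so few genes, counts of 0 are near these shares. The median of the step was 0.063. The probe set that lists Rfc4 together with the translation factor gene Eif4a2 differed by 0.18 ± 0.084, which cannot be assigned to either gene.

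All 9 genes of the polymerases and primase had positive differences, from 0.052 to 0.31 with a median of 0.13. Of the 9, 0 passed the test and 3 had an unadjusted p under 0.05. At that p 5.24% of all genes were higher and 5.79% lower. Pola2, the regulatory subunit of polymerase alpha, was at 7.89, 7.93 and 8.06 on the Control arrays and at 8.17, 8.26 and 8.40 on the Mist-targeted arrays. There was no overlap, and the difference was 0.31 ± 0.097 (SE; limma, adjusted p = 0.31). The catalytic subunit Pola1 had 0.086 ± 0.096 with overlap. The primase catalytic subunit Prim1 had 0.22 ± 0.079 without overlap and its partner Prim2 had 0.061 ± 0.081 with overlap. In polymerase epsilon, the leading strand enzyme, Pole had 0.19 ± 0.078 and Pole2 0.13 ± 0.078, both without overlap. A dimmer probe set of Pole, with means of 4.34 and 4.49, differed by 0.15 ± 0.11 and had overlap. In polymerase delta, which makes the lagging strand, Pold1 had 0.20 ± 0.10, Pold2 0.092 ± 0.081 and Pold3 0.052 ± 0.092, all with overlap.

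Fen1 and Lig1, which trim and seal the fragments of the lagging strand, were higher without overlap. Fen1 was at 6.47, 6.38 and 6.37 on the Control arrays and at 6.78, 6.86 and 6.85 on the Mist-targeted arrays, a 1.34-fold difference (0.42 ± 0.081, SE; limma, adjusted p = 0.11). Lig1 was at 7.96, 8.05 and 8.08 against 8.27, 8.27 and 8.32, with a difference of 0.26 ± 0.080 (adjusted p = 0.32). The single-strand binding proteins had groups that overlapped, with Rpa1 at 0.055 ± 0.087 and Rpa2 at 0.12 ± 0.14. In Rpa2 the Control arrays alone ranged from 6.86 to 7.39, wider than the 3 Mist-targeted arrays, which lay between 7.17 and 7.32. A second probe set of Fen1 at a lower level, with means of 4.85 and 5.08, had a difference of 0.23 ± 0.12 and overlap.

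Nucleotide supply split within the step. Rrm1 and Rrm2, the large and small subunits of ribonucleotide reductase, and Tyms, thymidylate synthase, were higher without overlap, whereas Tk1, the thymidine salvage kinase, was on the negative side. Tyms was at 6.52, 6.29 and 6.49 on the Control arrays and at 6.68, 6.86 and 6.73 on the Mist-targeted arrays, with a difference of 0.32 ± 0.10 (SE; limma, adjusted p = 0.31). Rrm2 was at 8.08, 8.16 and 8.16 against 8.41, 8.34 and 8.42 (0.25 ± 0.080, adjusted p = 0.33), and Rrm1 differed by 0.16 ± 0.081. A dimmer probe set of Rrm2, with means of 5.26 and 5.42, differed by 0.16 ± 0.12 and had overlap. Tk1 was at 7.73, 8.03 and 8.07 on the Control arrays and at 7.70, 7.79 and 7.98 on the Mist-targeted arrays. Control replicate 1 lay among the Mist-targeted arrays, and the difference of -0.12 ± 0.12 had a 95% interval from -0.41 to 0.17. None of the 4 passed the test, and 2 had an unadjusted p under 0.05. Over all genes, 5.24% were higher and 5.79% lower at that p. Without overlap, 9.99% of all genes lay above and 9.97% below.

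**Figure D3:**
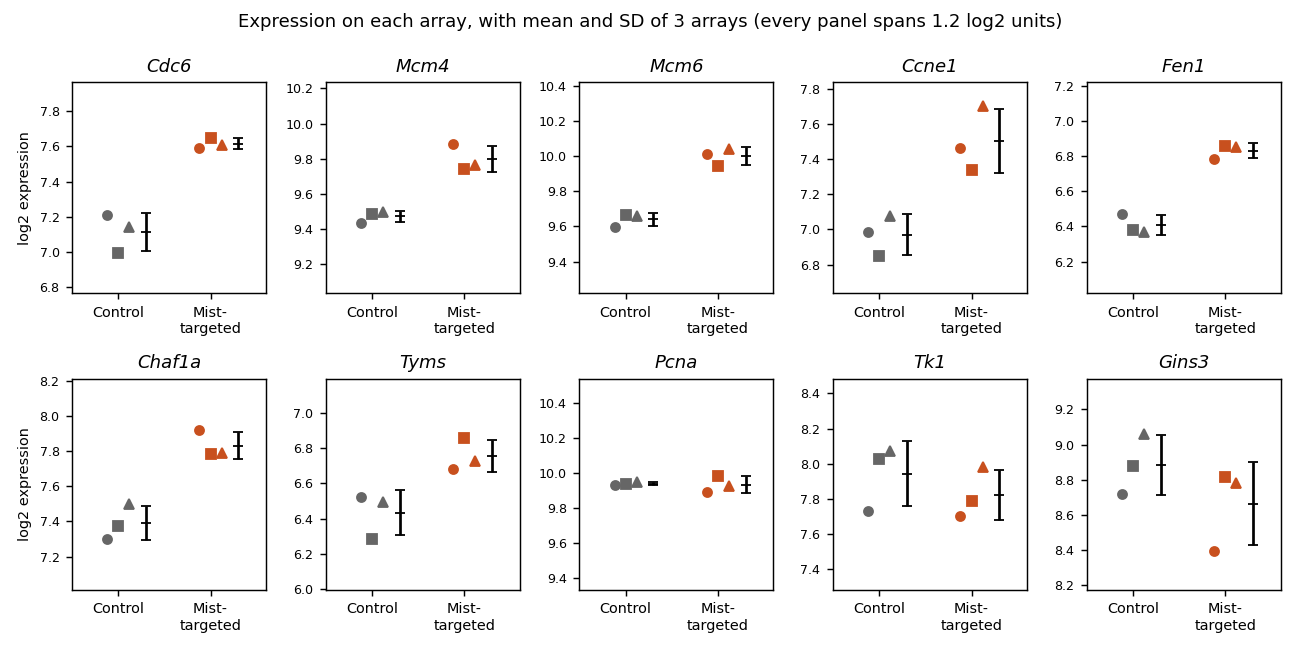
Log2 expression (vertical axis) of 10 replication genes on each Control (grey) and Mist-targeted (orange) array, with replicates 1, 2 and 3 as circle, square and triangle and with the mean and SD of 3 arrays as a bar. The groups do not overlap for Cdc6, Mcm4, Mcm6, Ccne1, Fen1, Chaf1a and Tyms and overlap for Pcna, Tk1 and Gins3.

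Among genes that copy chromatin with the DNA, Chaf1a stood out in size. This large subunit of the chromatin assembly factor CAF-1, which deposits histones behind the fork, was at 7.30, 7.37 and 7.50 on the Control arrays and at 7.92, 7.78 and 7.79 on the Mist-targeted arrays. The groups did not overlap and differed by 0.44 ± 0.092 (SE), or 1.36-fold (limma, adjusted p = 0.14). Its partner Chaf1b differed by 0.091 ± 0.083 and Uhrf1, which guides maintenance DNA methylation, by 0.13 ± 0.12, both with overlap. For Uhrf1, Mist-targeted replicate 1 (8.46) lay below 2 of the Control arrays (8.38, 8.58 and 8.62).

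Ccne1, the cyclin E1 gene whose product drives CDK2 at the start of S phase, had the largest difference of all. It was at 6.99, 6.85 and 7.08 on the Control arrays and at 7.46, 7.34 and 7.70 on the Mist-targeted arrays, with no overlap and a difference of 0.53 ± 0.12 (SE; limma, adjusted p = 0.16). Leaving out single arrays moved this difference between 0.43 and 0.61. E2f1, the activating E2F factor, differed by 0.22 ± 0.12 with overlap, and only Mist-targeted replicate 3, at 7.41, was well above the Control arrays, the highest of which was at 7.07. The probe set shared by Ccne2 and the Integrator gene Ints8 differed by 0.33 ± 0.083 without overlap and cannot be assigned to either. Mcm8, a paralogue that works in DNA repair outside the MCM ring, was at 7.10, 6.95 and 7.21 against 7.12, 7.04 and 7.11. Its groups overlapped, with a difference of 0.0065 and a 95% interval from -0.21 to 0.23.

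Set side by side, the steps had median differences of 0.18 for licensing, 0.13 for firing, 0.063 for clamp and loader, 0.13 for polymerases and primase, 0.19 for single-strand binding and joining, 0.21 for nucleotide supply and 0.13 for chromatin copying. The 2 measured genes of G1 to S control had 0.22 and 0.53. Most ranges within steps overlapped, genes of a step are not replicates, and no test between steps was made. On the level of arrays, the median of all 48 genes against the Control mean was -0.042, 0.0079 and 0.030 on the Control arrays and 0.14, 0.19 and 0.16 on the Mist-targeted arrays. Control replicate 1 was lowest, with 12 of 48 genes above the Control mean, against 26 and 35 on Control replicates 2 and 3. The Mist-targeted arrays had 41, 42 and 44 genes above that mean. For licensing the Mist-targeted medians were 0.13, 0.26 and 0.17, for polymerases and primase 0.15, 0.13 and 0.14, for nucleotide supply 0.22, 0.19 and 0.20 and for the clamp step 0.062, 0.081 and 0.038. In each of these 4 steps all 3 Mist-targeted medians lay above that step's own Control medians.

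**Figure D4:**
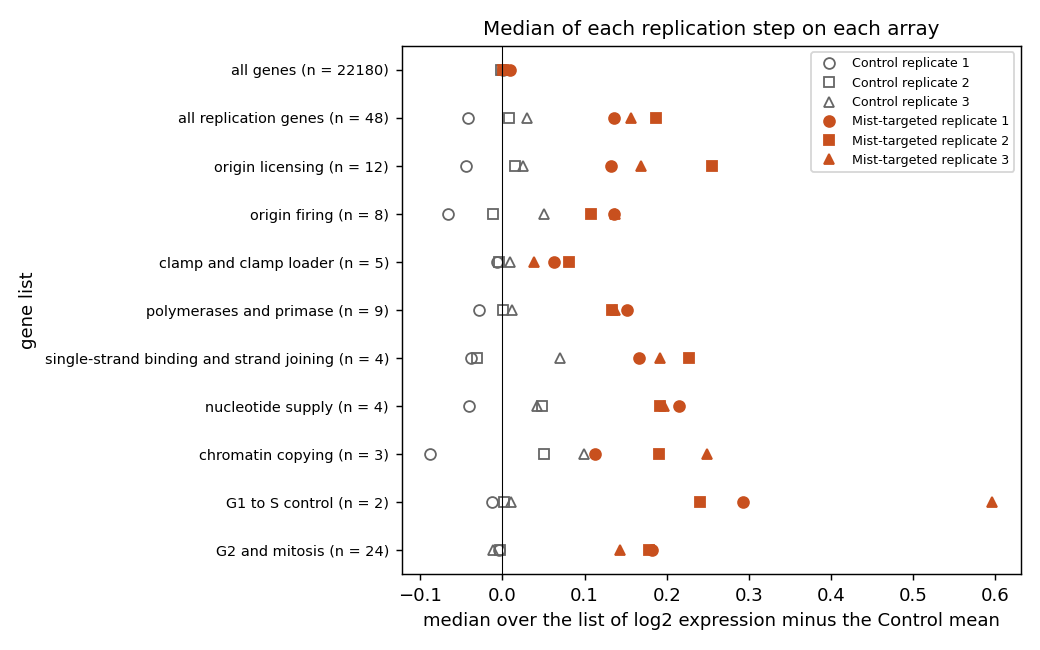
Median over each gene list of log2 expression minus the Control mean (horizontal axis) on each of the 6 arrays, for all genes, all 48 replication genes, the steps with at least 2 measured genes and the list of G2 and mitosis (vertical axis, with the number of genes). Open grey symbols are Control arrays and filled symbols Mist-targeted arrays; for all replication genes the Mist-targeted medians are 0.14, 0.19 and 0.16, above the highest Control median of 0.030.

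The genes that drive later phases were higher by a like amount. Of 24 measured genes of G2 and mitosis 22 were positive, with a median of 0.18, and 0 passed the test. Without overlap 15 (62.5%) lay above and 1 below, where 9.99% of all genes lay above and 9.97% below. Among genes within the level range of the replication genes 16.7% lay above and 17% below. Aurka, a kinase of the mitotic spindle poles, differed by 0.44 ± 0.094 (SE; limma, adjusted p = 0.15), Plk1 by 0.34 ± 0.079 (adjusted p = 0.17) and the proliferation marker Mki67 by 0.16 ± 0.076 (adjusted p = 0.58). Positive differences were therefore found outside the replication genes as well, and no test compared the lists. In bulk RNA, a larger share of cells in a phase and more RNA of these genes per cell cannot be told apart.

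Upstream of replication, the inhibitor gene Cdkn1b was lower. It encodes p27, which holds cyclin E with CDK2 inactive, and was at 7.36, 7.33 and 7.17 on the Control arrays and at 6.52, 6.82 and 6.69 on the Mist-targeted arrays. The groups did not overlap, and the difference of -0.61 ± 0.11 (SE) did not pass over all probe sets (limma, adjusted p = 0.084). Tested among probe sets with 1 listed gene, Cdkn1b fell (adjusted p = 0.0066). The related inhibitor gene Cdkn1a, which encodes p21, differed by 0.0048, with a 95% interval from -0.19 to 0.20. Another inhibitor gene of the list, Cdkn2c, lay on the other side of 0 from Cdkn1b. It differed by 0.30 ± 0.098 without overlap (adjusted p = 0.36 in limma). The phosphatase gene Cdc25a, which activates CDK2, differed by 0.37 ± 0.091 (adjusted p = 0.19) and the cyclin D1 gene Ccnd1 by 0.20 ± 0.085 (adjusted p = 0.52), both without overlap. The retinoblastoma gene Rb1 differed by -0.26 ± 0.11 and Myc by -0.48 ± 0.21, both with overlap, through Control replicate 3. None of the 19 genes of this list of D cyclins, kinases, inhibitors and retinoblastoma family passed over all probe sets, and the median was 0.031, with 13 positive and 6 negative.

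In the E2F family and its partners, 12 of 15 were positive, with a median of 0.20, and 0 passed. The repressive members E2f8 and E2f7, themselves E2F targets, had the smallest p values. E2f8 was at 8.69, 8.84 and 8.62 on the Control arrays and at 9.10, 9.12 and 9.13 on the Mist-targeted arrays (0.40 ± 0.089, SE; limma, adjusted p = 0.16), and E2f7 differed by 0.37 ± 0.086 (adjusted p = 0.17). Neither overlapped between groups. Of the 15, 8 (53.3%) lay above without overlap and 1 below, where 9.99% of all genes lay above and 9.97% below. Within the level range of the replication genes 16.7% lay above and 17% below.

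Further replisome and origin genes had a median of 0.11, with 20 of 24 positive and 0 past the test. Dscc1, a subunit of an alternative clamp loader, differed by 0.29 ± 0.088 (SE; limma, adjusted p = 0.30), the nuclease and helicase gene Dna2 by 0.26 ± 0.083 (adjusted p = 0.32) and Mcmbp, whose product binds MCM proteins, by 0.033 ± 0.088. Further nucleotide genes had a median of 0.16, with 12 of 18 positive and 0 past the test. Dck, the deoxycytidine salvage kinase, was at 9.37, 9.39 and 9.44 against 9.80, 9.84 and 9.86, without overlap (0.43 ± 0.078, adjusted p = 0.089). Umps, which completes uridine monophosphate synthesis, differed by 0.37 ± 0.083 (adjusted p = 0.16). Samhd1, which degrades deoxynucleotides in resting myeloid cells, differed by 0.23 ± 0.081 (adjusted p = 0.39).

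In the replication checkpoint list the 2 genes with the smallest p lay on opposite sides of 0. Brca1, which protects and repairs forks, was at 6.94, 7.04 and 6.91 on the Control arrays and at 7.48, 7.52 and 7.39 on the Mist-targeted arrays (0.50 ± 0.084, SE; limma, adjusted p = 0.080). Atr, the kinase that senses stalled forks, was at 7.90, 8.16 and 8.11 against 7.54, 7.71 and 7.53 (-0.46 ± 0.10, adjusted p = 0.16). This probe set of Atr was the brighter of 2, and the dimmer, with means of 4.10 and 4.18, had a difference of 0.082 ± 0.11. The mean of both gave -0.19 (adjusted p = 0.60 in limma). On the probe sets used, 3 genes of the list lay above without overlap, Brca1 among them, and 1 below, Atr. Over all genes 9.99% lay above and 9.97% below. Of the 14 measured genes 9 were positive, with a median of 0.086, and 0 passed. With only singly listed probe sets in the fit, Brca1, Dck, Umps, Cdc25a, E2f7, E2f8 and Aurka rose and Cdkn1b and the brighter probe set of Atr fell, with adjusted p values from 0.0066 to 0.049.

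**Figure D5:**
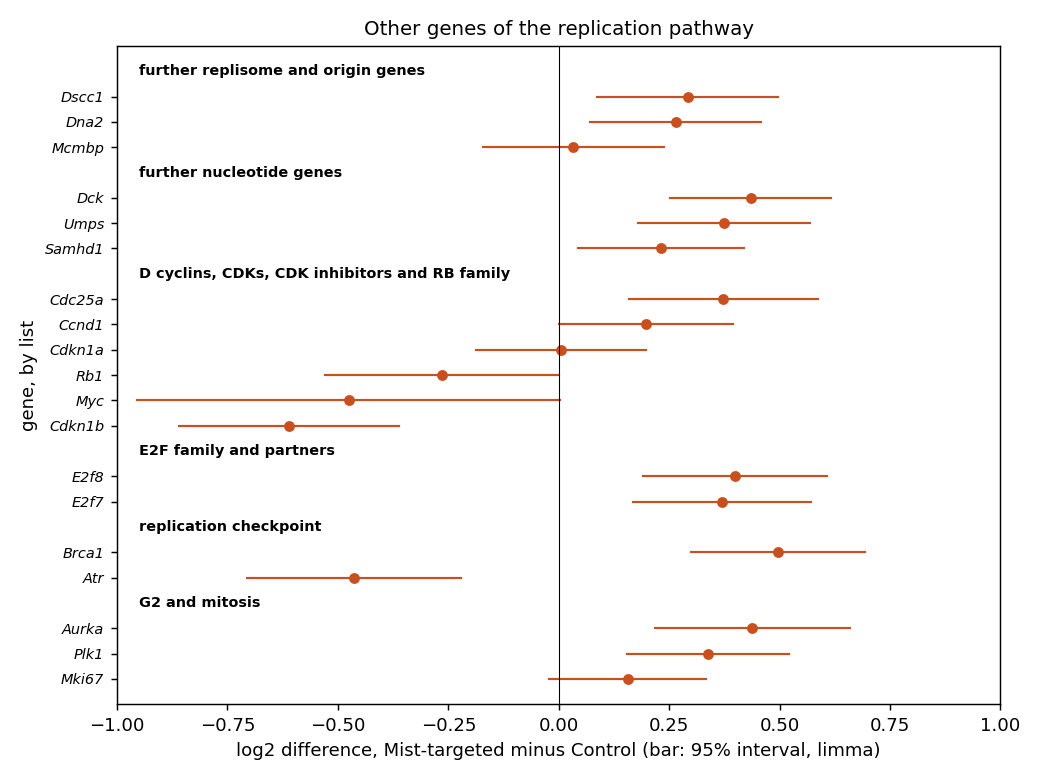
Log2 difference, Mist-targeted minus Control (horizontal axis), of the named genes of the replication pathway outside the 50, without Cdkn2c, grouped by list (vertical axis). Points are limma estimates from 3 against 3 arrays and bars their 95% intervals. Cdkn1b (-0.61), Myc (-0.48), Atr (-0.46) and Rb1 (-0.26) lie to the left of 0. The largest differences to the right are those of Brca1 (0.50), Aurka (0.44) and Dck (0.43).

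Median log2 levels per array ran from 4.468 to 4.497. Precision is limited by the number of arrays, and the median SE over the 48 differences was 0.091. All 8 macrophage markers, among them Cd68, Csf1r and Lyz2, were at 8.88 or higher on every array. The 7 T and B cell markers lay between 3.48 and 4.51 and the 6 fibroblast markers between 3.30 and 4.75. Most of these values were below the array medians. In these 3 lists 0 genes passed the test, with the smallest p at Ptprc (-0.27), Adgre1 (0.23), Cd3d (-0.16), Cd3e (0.13), Dcn (0.13) and Lum (0.094). Their part in the differences of replication genes was not tested.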

How the data were processed

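RNA of 3 Control and 3 Mist-targeted samples was labelled with biotin from 5 µg and hybridised to 1 array each. The table deposited by the authors holds log2 expression with a column for each array. Per the submitters' processing notes, RMA and Partek were among the tools, with neither version nor role stated. As background, RMA usually makes arrays share a distribution, which would reduce a change common to most transcripts. Values were used as deposited (2.50 to 14.08).

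Of 41345 probe sets, 23521 had 1 listed gene, 1814 several and 16010 none; the table of the platform annotation named them, and all 48 measured genes matched the RefSeq gene table of GRCm38.p6. All probe sets were fitted with limma 3.58.1 in R 4.3.3 (two-sided, group only), with Benjamini-Hochberg adjustment over all of them and a call at an adjusted p under 0.05. SE and intervals of 95% use the moderated variance. With 3 against 3 samples, 0.1 is the smallest p that exact permutation allows. The fit was also run on simulated arrays. The changes set there were larger than any difference of the replication genes, so changes this small were not tried. Whether replicates were separate cultures is not stated, and p values then cover only the spread among these samples, possibly a technical one. No columns were identical, and 0 were unused.

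The genes, lists and tests were chosen with earlier results of these data known. The genes named with values on every array were the 12 with the smallest p, that of each step with the smallest p, and those furthest below 0. Of each further list, up to 4 past the threshold or else 2 with the smallest p were named, with Cdkn1a, Cdkn1b, Ccnd1, Rb1, Myc, Samhd1, Mki67 and Mcmbp always named. Cdkn2c was added after the values were seen, as an inhibitor gene on the other side of 0 from Cdkn1b. Lists received counts and medians, with no set test. The alternatives comprised a block for the replicate number, a trended and robust variance prior, no variance moderation, dropping the dimmest 40% of probe sets, singly listed probe sets only, quantile normalization, median centring, array weights, the mean of a gene's probe sets and leaving out each array. Tables were made in pandas 2.3.3 and plots in matplotlib 3.10.9, under Python 3.11.15.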

Additional observations from a re-analysis of the deposited data

How the results depend on the processing

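The median difference of the 48 replication genes, 0.14, stayed between 0.13 and 0.17 under all alternatives, and 44 or 45 of 48 genes were positive. The count at an unadjusted p under 0.05 lay between 11 and 19. Of the 48, 0 were called, but 2 with trend and robust estimation and 5 among singly listed probe sets, where fewer features were tested and the prior degrees of freedom rose from 3.48 to 7.85. With each array left out in turn 0 were called, and the medians ran from 0.053 to 0.22 for chromatin copying, 0.031 to 0.071 for clamp and loader, 0.12 to 0.16 for polymerases and primase and 0.14 to 0.27 for single-strand binding and joining. The cause was not tested. Small differences changed sign: Cdkn1a was -0.011 after quantile normalization and -0.0021 after median centring, and Mcm8 was -0.00038 after median centring. Without single arrays they ranged from -0.024 to 0.043 for Cdkn1a, -0.061 to 0.068 for Mcm8, -0.015 to 0.089 for Mcmbp, -0.031 to 0.017 for Pcna, -0.0039 to 0.091 for Pold3 and -0.00095 to 0.27 for Rpa2. Without Control replicate 3 Myc had -0.73 and without Control replicate 2 it had -0.32. Leaving out 1 array moved the difference of 23 of the 48 replication genes by over 1.5 times in at least 1 case; Cdc6, Fen1, Chaf1a, Mcm6 and Ccne1 were among the other 25. The median of all genes was at most 0.010 in every setting. The number of genes called over the array was 92, but 0 without moderation, 140 without the dimmest probe sets, 241 with trend and robust estimation, 677 among singly listed probe sets and 1 to 34 with 1 array left out. Deviations of same-numbered arrays correlated at 0.20, 0.10 and 0.03. Control replicates 1 and 2 correlated best with their own number, and Control replicate 3 with Mist-targeted replicate 2 (0.06). With 3 arrays per group these values cannot settle whether same-numbered samples were paired. With the replicate block 0 replication genes were called, 13 had an unadjusted p under 0.05, and the median difference of the 48 was 0.14. In that fit 0 genes of the whole array were called, against 92 without the block. Signal over background was not measured here, which limits what can be said of the dimmest probe sets.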
